A study of Mus musculus with 4 samples.

Results

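The glycolysis and pentose phosphate genes were followed as a group of 37 named genes. The deposited table held 23629 gene names on 23756 gene entries. Members were chosen by gene symbol, but with earlier results of these data known. They cover glucose uptake, the steps of glycolysis, the enzymes that set fructose 2,6-bisphosphate, lactate formation and export, the gate to pyruvate dehydrogenase, and the pentose phosphate pathway. RNA-seq had been performed on 32Dcl3 cells, a murine hematopoietic line that normally needs interleukin-3 (IL-3) to survive, after CRISPR/Cas9 editing of Abl1 with lentiviral guides and puromycin selection. The Abl1ko/IL3+ group (2 libraries) was edited cells kept with IL-3, and the Abl1ko/IL3- group (2 libraries) was edited cells growing without it. Both groups carried the Abl1 knockout, so the comparison asks how cells that had become independent of the growth factor differ from edited cells still receiving it. The libraries are described as biological duplicates. The edited populations were derived with 2 guides, and the paper also describes selecting single clones for its experiments. The sources used here do not say which population or clone gave which library, or for how long IL-3 had been absent.

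Glycolysis splits glucose into pyruvate in the cytosol and yields a little ATP. Dividing cells often send much of the pyruvate to lactate even when oxygen is present. The pentose phosphate pathway branches off at glucose 6-phosphate and supplies NADPH and ribose for nucleotides. Cytokines such as IL-3 are known to keep glucose uptake and hexokinase activity up in hematopoietic cells through PI3K-AKT signaling, and the hypoxia-inducible factors (HIF) and MYC are textbook activators of many glycolytic genes.

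In Abl1ko/IL3- cells the mRNA of Slc2a1, the GLUT1 glucose transporter, stood at 23.1 and 49.97 FPKM, against 12.3 and 10.6 FPKM in Abl1ko/IL3+ cells. FPKM are read counts scaled by gene length and by library depth, so levels of different genes can be compared on this scale. The muscle-type phosphofructokinase gene Pfkm stood the other way, at 14.97 and 18.5 FPKM without IL-3 against 40.8 and 25.6 FPKM with it. Neither gene passed the test after adjustment over all genes, and neither did any other member: 0 of the 36 members that passed the expression filter had an adjusted p under 0.05, beside 0.0% of all 16535 genes tested (edgeR's quasi-likelihood F test, Benjamini-Hochberg adjusted). An unadjusted p under 0.05 was reached by 2 of 36 members (5.56%), close to the 5.91% of all genes tested. DESeq2's Wald test called 0 members after adjustment, beside 1.64% of all genes, and gave 3 members, Slc2a1, Pfkm and Pfkfb3, an unadjusted p under 0.05 (8.33%), close to the 8.28% of all genes. Among the members 15 were higher (48.1% of all genes tested were) and 21 lower (51.9% of all genes) without IL-3, and their median log2 fold change was -0.04, beside -0.03 for all genes tested.

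The libraries held 59659395 and 60382588 counts in Abl1ko/IL3+ replicates 1 and 2 and 48953174 and 55320279 counts in Abl1ko/IL3- replicates 1 and 2, so that 3 counts, taken as the floor of detection, equal 0.0497 to 0.0613 CPM, the counts scaled to library size. This floor covers counting error only. Replicates of a group differed far beyond sampling noise, and the biological coefficient of variation was 0.540. The Abl1ko/IL3+ libraries in particular stood apart from each other in their lineage markers: the 9 erythroid markers summed to 381 FPKM in replicate 1 and 12068 FPKM in replicate 2, with 5594 and 3177 FPKM in the Abl1ko/IL3- replicates, and of the 8 that passed the filter 1 stood higher and 7 lower without IL-3. The 8 mast cell and basophil markers summed to 459, 64.1, 123 and 117 FPKM in the same order, and 7 of the 8 passed the filter, of which 2 stood higher and 5 lower without IL-3. The labels call the cells pre-B cells, but 8 of 13 B lineage markers were found in the table and summed to only 12.4 to 15.4 FPKM. The 11 myeloid progenitor markers, led by Mpo, summed to 857 and 742 FPKM with IL-3, against 499 and 388 FPKM without it, with 1 of 10 tested higher and 9 lower at a median log2 fold change of -0.48, whereas Kit had at most 4 counts and Cd34 at most 30 counts in any library. Of 12 markers of maturing granulocytes 11 were tested, and 9 were higher and 2 lower without IL-3. In bulk RNA, a smaller number of cells of a type and less RNA per cell cannot be told apart. Abl1 itself was listed at 1.70 and 2.82 FPKM with IL-3 and at 2.37 and 3.10 FPKM without it (log2 fold change 0.21, standard error 0.45, adjusted p = 0.980 in edgeR). Small deletions left by Cas9 need not lower the mRNA, so this level checks the labels only weakly.

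Of the 37 symbols, Aldoa stood on 2 entries. Its main entry (ENSMUSG00000030695) held nearly all reads, and the second (ENSMUSG00000114515) held 2, 1, 9 and 9 counts and was not tested. The other member left out of the test was Eno2, the neuronal enolase, with 4 counts in Abl1ko/IL3+ replicate 2 and 0 counts in the other libraries. The remaining 36 genes were expressed well: their median FPKM over the 4 libraries was 27.5, beside 3.36 for all genes tested, and 28 had 1000 counts or more in every library. The highest levels belonged to Pgk1, Aldoa, Pkm and Ldha, none of them under 236 FPKM in any library. At the other end stood Aldoc and Pdk2, at 0.24 FPKM or less in every library. The plot of FPKM by library shows this spread of levels.

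**Figure D1:**
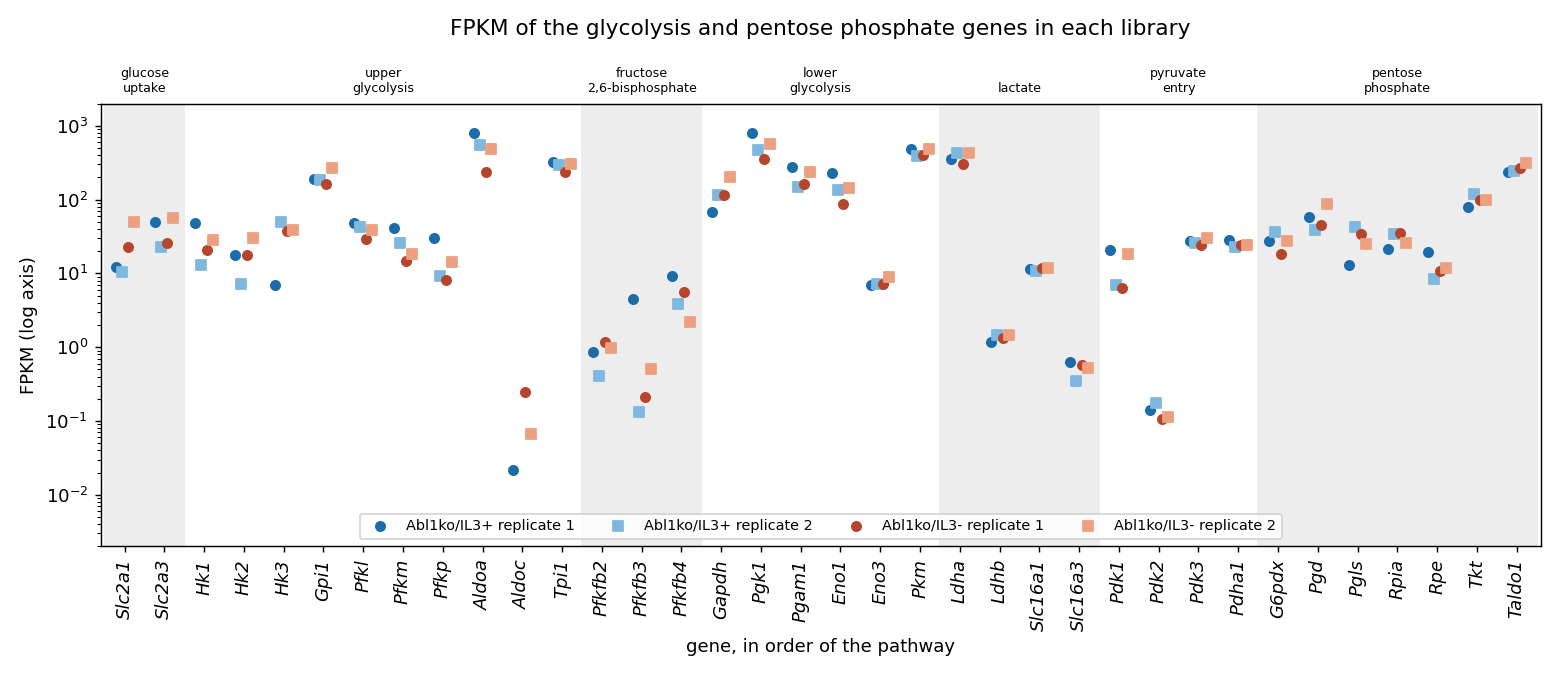
FPKM of each tested member (log axis) in the 4 libraries, with the genes in order of the pathway and 1 point per library. The Slc2a1 points without IL-3 lie above both points with IL-3 and the Pfkm points below, most other genes overlap, and the Aldoc value of 0 in Abl1ko/IL3+ replicate 2 cannot be drawn on the log axis.

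Many genes of the pathway have short sites for HIF close to their start, and the windows of 4 members are shown as examples: Slc2a1 and Hk2, the well-expressed members with the largest differences upwards, Pfkm, the only member with an unadjusted p under 0.05 in edgeR downwards, and Pgk1, the member with the highest mean FPKM. RefSeq promoter windows (build GRCm38.p6) were found for 36 of 37 members, all but Slc2a3. The 250 bases before each start were searched on both strands for ACGTG and GCGTG, the core of a HIF site. The sequences run 5′ to 3′ on the strand of the gene, and capitals mark the matches, which read CACGT or CACGC where the core lies on the other strand. The Slc2a1 window is chr4:119108495-119108744 on the plus strand, that of Hk2 is chr6:82774455-82774704 on the minus strand, that of Pfkm is chr15:98092339-98092588 on the plus strand, and that of Pgk1 is chrX:106186850-106187099 on the plus strand.
Slc2a1: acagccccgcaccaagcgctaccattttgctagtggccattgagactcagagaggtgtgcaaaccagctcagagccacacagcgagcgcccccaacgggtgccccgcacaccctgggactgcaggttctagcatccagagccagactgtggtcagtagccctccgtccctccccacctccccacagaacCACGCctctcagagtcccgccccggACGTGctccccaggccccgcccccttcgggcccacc
Hk2: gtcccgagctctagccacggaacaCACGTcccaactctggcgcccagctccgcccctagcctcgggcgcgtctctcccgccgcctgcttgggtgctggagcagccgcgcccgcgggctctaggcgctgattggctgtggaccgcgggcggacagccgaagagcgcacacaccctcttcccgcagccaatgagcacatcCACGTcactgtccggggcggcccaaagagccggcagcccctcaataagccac
Pfkm: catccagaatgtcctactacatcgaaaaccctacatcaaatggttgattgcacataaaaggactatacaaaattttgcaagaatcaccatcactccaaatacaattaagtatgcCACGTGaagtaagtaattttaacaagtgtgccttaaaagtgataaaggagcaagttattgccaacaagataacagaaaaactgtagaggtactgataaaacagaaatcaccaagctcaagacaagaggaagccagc
Pgk1: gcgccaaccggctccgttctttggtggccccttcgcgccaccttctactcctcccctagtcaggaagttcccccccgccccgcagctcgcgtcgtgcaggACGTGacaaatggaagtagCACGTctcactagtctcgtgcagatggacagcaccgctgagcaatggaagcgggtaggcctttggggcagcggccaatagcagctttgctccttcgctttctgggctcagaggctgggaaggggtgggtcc
In Pfkm the capitals form CACGTG, the E-box bound by MYC and MAX, which holds ACGTG on both strands, and this window is 1 of 4 that RefSeq gives for the gene. A core of either form was found in the windows of 29 of 36 members (80.6%), against 52.6% of 12376 genes of the table read in the same way, with 1 window per gene, the nearest to the start in the table. Over all 32851 RefSeq windows, several per gene included, the share was 38.6%. CACGTG was found in 5 of 36 (13.9%) against 7.63% of genes, and the GC box GGGCGG, a site for SP1, in 23 of 36 (63.9%) against 53.6% of genes. These shares describe letters in a window. The 4 windows were picked partly by how the genes differed, so nothing about the direction of a difference can be read from them.

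Glucose uptake was represented by Slc2a1 and Slc2a3. Slc2a1 lies on chromosome 4 from 119108711 to 119137983 (ENSMUSG00000028645) and encodes GLUT1, the broadly used carrier. Its mean was 11.4 ± 1.21 FPKM with IL-3, against 36.6 ± 19.0 FPKM without it (SD, n = 2 each). Both libraries without IL-3 were above both with IL-3, and the Abl1ko/IL3- replicates themselves differed more than 2-fold. The fitted difference was 3.12-fold, a log2 fold change of 1.64 (standard error 0.44, unadjusted p = 0.0135, adjusted p = 0.727 in edgeR). It stayed between 1.07 and 2.06 when each library was left out in turn. DESeq2's Wald test gave it an adjusted p of 0.0959. Slc2a3 encodes GLUT3, a carrier of higher affinity, and was at 50.1 and 22.5 FPKM with IL-3, against 25.5 and 56.6 FPKM without it, so that the groups overlapped. Slc2a1 therefore made up 19.7% and 31.9% of the summed FPKM of this pair with IL-3, and 47.6% and 46.9% without IL-3. The Slc2a1 entry overlaps an antisense gene over 105 bases, and whether the counting used strand is not given in the sources used here.

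The hexokinases, which trap glucose as glucose 6-phosphate, showed mainly a difference between the Abl1ko/IL3+ replicates. Hk1, the housekeeping form bound to mitochondria, was at 48.6 and 12.9 FPKM with IL-3, against 20.96 and 28.3 FPKM without it. Hk3, a form found in myeloid cells, was at 6.94 and 49.8 FPKM with IL-3, against 37.05 and 38.3 FPKM without it. In both genes the values without IL-3 lay between the 2 values with IL-3. Leaving out Abl1ko/IL3+ replicate 1 gave log2 fold changes of 0.79 for Hk1 and -0.54 for Hk3, and leaving out replicate 2 gave -0.87 and 2.55. Hk3 supplied 9.45% of the hexokinase FPKM in Abl1ko/IL3+ replicate 1 but 71.1% in replicate 2, the libraries that also differed in erythroid and mast cell markers, and the part of these markers in the result was not tested. Hk2, the inducible form, was at 17.9 and 7.30 FPKM with IL-3, against 17.5 and 30.2 FPKM without it. On the FPKM scale Abl1ko/IL3+ replicate 1 and Abl1ko/IL3- replicate 1 were level, while on the composition-corrected CPM scale (111 and 54.4 CPM against 122 and 195 CPM) the groups did not overlap. The log2 fold change of Hk2 was 0.94 (standard error 0.49, unadjusted p = 0.113, adjusted p = 0.870 in edgeR). It was 1.56 without Abl1ko/IL3+ replicate 1 and 0.51 without Abl1ko/IL3+ replicate 2.

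**Figure D2:**
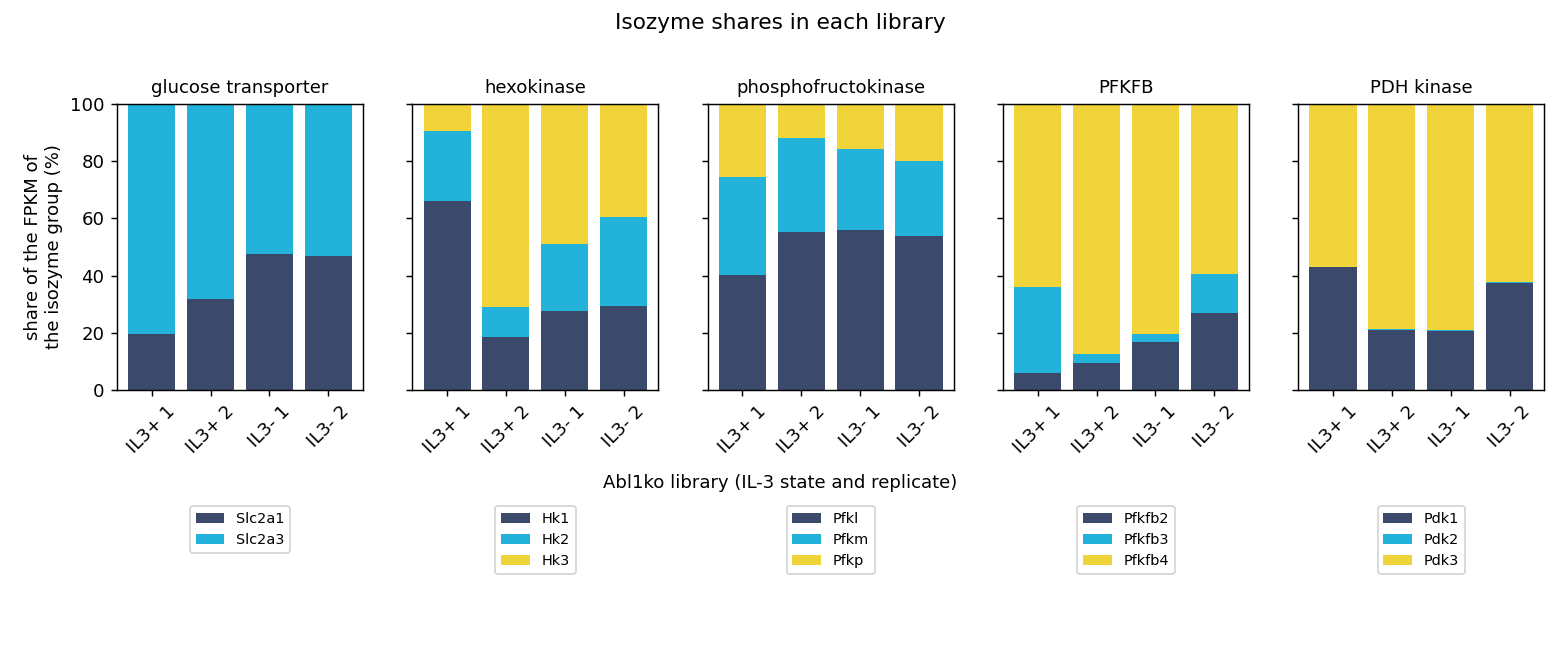
Share of the summed FPKM (percent) held by each member of an isozyme group in the 4 libraries, for the glucose transporters, hexokinases, phosphofructokinases, fructose 2,6-bisphosphate enzymes (PFKFB) and pyruvate dehydrogenase (PDH) kinases. The Slc2a1 share is at most 31.9% in the libraries with IL-3 and at least 46.9% in those without it, whereas the shares of the hexokinases and PDH kinases overlap between the groups.

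Phosphofructokinase makes the committed step of glycolysis, and all 3 of its subunit genes had a negative log2 fold change. Pfkm (ENSMUSG00000033065, chromosome 15 from 98092589 to 98132447) had means of 33.2 ± 10.7 FPKM with IL-3, against 16.7 ± 2.48 FPKM without it (SD, n = 2 each). The groups did not overlap. Its log2 fold change of -0.99, or 1.98-fold lower, had a standard error of 0.33, an unadjusted p of 0.0297 and an adjusted p of 0.801 (edgeR's quasi-likelihood F test, Benjamini-Hochberg adjusted), and it stayed between -1.18 and -0.75 when each library was left out. Pfkl, the liver-type subunit and the most abundant of the 3 in every library, was at 48.0 and 42.9 FPKM with IL-3, against 29.4 and 38.4 FPKM without it, again with no overlap. Pfkp, the platelet-type subunit, was at 30.5 and 9.34 FPKM with IL-3, against 8.21 and 14.2 FPKM without it, so that Abl1ko/IL3+ replicate 1 alone stood high. Its log2 fold change of -0.79 (standard error 0.58, unadjusted p = 0.231, adjusted p = 0.906 in edgeR) became 0.12 without that library. Pfkm overlaps another gene on its strand over 341 bases and an antisense gene over 18 bases, so its counts carry that uncertainty. Antisense genes also overlap Pfkp (748 bases), Gpi1 (741 bases), Pdha1 (603 bases), Rpe (558 bases), G6pdx (418 bases) and Hk1 (157 bases). Gapdh, Hk3, Tpi1 and the main entry of Aldoa have such overlaps over 25 to 68 bases.

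The PFKFB enzymes make and remove fructose 2,6-bisphosphate, the strongest activator of phosphofructokinase. Pfkfb3, the form with the strongest kinase activity, held 2258 and 68 counts with IL-3, against 93 and 239 counts without it (4.45, 0.13, 0.21 and 0.50 FPKM). Abl1ko/IL3+ replicate 1 was far above the other 3 libraries, and the log2 fold change of -2.58 (standard error 1.48, unadjusted p = 0.142, adjusted p = 0.878 in edgeR) was 1.29 without that library. Pfkfb4 was the most abundant of the 3 at 9.37 and 3.81 FPKM with IL-3, against 5.64 and 2.20 FPKM without it, with overlapping groups and a log2 fold change of -0.69 (standard error 0.65, unadjusted p = 0.337, adjusted p = 0.933 in edgeR). That value was -0.07 without Abl1ko/IL3+ replicate 1 and -0.13 without Abl1ko/IL3- replicate 2. Pfkfb2, the form known as a substrate of AKT in heart, was at 0.86 and 0.41 FPKM with IL-3, against 1.17 and 0.99 FPKM without it. Both of its values without IL-3 were higher, and the log2 fold change was 0.80 (standard error 0.51, unadjusted p = 0.178, adjusted p = 0.895 in edgeR), with 1.27 without Abl1ko/IL3+ replicate 1 and 0.45 without Abl1ko/IL3+ replicate 2. The share of Pfkfb2 in the FPKM of these 3 genes was 5.84% and 9.40% with IL-3, against 16.6% and 26.8% without it. With Pfkfb1 counted in the family, which is no member, the shares were 5.54% and 7.29% against 13.5% and 20.5%. Pfkfb2 overlaps another gene on its strand over 1262 of its 7254 exon bases, so its counts and shares carry that uncertainty. Pgls and Pkm also overlap a gene on their strand, over 776 and 767 bases.

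Aldolase cuts fructose 1,6-bisphosphate into 2 triose phosphates. Aldoa, which carried at least 99.8% of aldolase FPKM in every library, was at 793 and 551 FPKM with IL-3, against 236 and 481 FPKM without it. Its groups did not overlap, although Abl1ko/IL3+ replicate 2 and Abl1ko/IL3- replicate 2 were close. The log2 fold change was -0.93 (standard error 0.45, unadjusted p = 0.0953, adjusted p = 0.860 in edgeR), and it ranged from -1.45 to -0.54 over the libraries left out. The related Aldoc held 6 and 0 counts with IL-3, against 45 and 15 counts without it. Both libraries without IL-3 were higher, at FPKM of at most 0.24, and its log2 fold change of 3.58 (standard error 1.63, unadjusted p = 0.0796, adjusted p = 0.855 in edgeR) rests on these few reads. It was 2.39 without Abl1ko/IL3- replicate 1. Without Abl1ko/IL3+ replicate 1 it was 8.01, a value that depends on the prior count because the library left with IL-3 is at 0 counts. Gpi1, which turns glucose 6-phosphate into fructose 6-phosphate, was at 189 and 187 FPKM with IL-3, against 161 and 270 FPKM without it. Tpi1, which interconverts the trioses, was at 323 and 299 FPKM with IL-3, against 238 and 307 FPKM without it, so both genes overlapped between the groups on this scale.

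The later steps of glycolysis, where ATP is gained, were lowest in sum in Abl1ko/IL3- replicate 1 and highest in Abl1ko/IL3+ replicate 1. The summed FPKM of the 7 genes were 1864 and 1269 with IL-3, against 1133 and 1641 without it. Gapdh, which makes the NADH of glycolysis, was at 67.0 and 115 FPKM with IL-3, against 117 and 205 FPKM without it. The nearest values of the 2 groups, 115 and 117 FPKM, were almost the same, and on the composition-corrected CPM scale they overlapped. Its log2 fold change was 0.75 (standard error 0.50, unadjusted p = 0.197, adjusted p = 0.898 in edgeR), and it was 0.34 without Abl1ko/IL3+ replicate 1 and 1.36 without Abl1ko/IL3+ replicate 2. Gapdh is often used as a reference gene, and here its FPKM spanned a 3.06-fold range over the 4 libraries. Pgk1, which makes the first ATP, was at 797 and 465 FPKM with IL-3, against 354 and 567 FPKM without it. Pgam1, the phosphoglycerate mutase, was at 280 and 151 FPKM with IL-3, against 165 and 238 FPKM without it. Both overlapped between the groups. Eno1, the main enolase, was at 231 and 135 FPKM with IL-3, against 87.7 and 143 FPKM without it, with a log2 fold change of -0.67 (standard error 0.40, unadjusted p = 0.159, adjusted p = 0.889 in edgeR). That value was -0.37 without Abl1ko/IL3+ replicate 1. Eno3, the muscle enolase, was nearly level at 6.87 and 7.13 FPKM with IL-3, against 7.17 and 8.86 FPKM without it. Pkm, the pyruvate kinase gene, was at 482 and 396 FPKM with IL-3, against 402 and 479 FPKM without it, a log2 fold change of -0.01 with a standard error of 0.35. Gene counts do not separate its M1 and M2 splice forms.

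Near-identical copies and a close paralog bear on some of these values. The copy Eno1b held 42526 and 35174 counts with IL-3, against 10732 and 32416 counts without it, which is 28.9% to 41.7% of the reads of both entries together. Summed over Eno1 and Eno1b, the level was 1954 and 1550 CPM with IL-3, against 776 and 1388 CPM without it. The groups did not overlap in that sum or in the CPM of Eno1 alone, whereas they overlapped in the FPKM of Eno1. The copy Pgam1-ps2 held 2.48% to 9.06% of the reads of Pgam1 and Pgam1-ps2 together, and Pgk1-rs7 held 1.01% to 1.89% of those of Pgk1 and Pgk1-rs7. The related Ldhc, at 23.3 to 68.0 FPKM, held 3.004% to 7.02% of the reads of Ldha and Ldhc together. The level of each gene alone is uncertain, since reads of the parent gene may have been assigned to the other entry. How many of them were was not tested.

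Lactate formation and export had no member past a log2 fold change of 0.16 in size. Ldha, the subunit that favours lactate, was at 360 and 429 FPKM with IL-3, against 306 and 435 FPKM without it, and Ldhb at 1.17 to 1.47 FPKM. Ldha held 99.6% to 99.7% of the FPKM of this pair. Slc16a1, the MCT1 carrier of lactate and pyruvate, was at 11.4 and 10.96 FPKM with IL-3, against 11.98 and 11.8 FPKM without it. The 2 groups did not overlap in FPKM, yet the difference was a log2 fold change of 0.07 with a standard error of 0.30, and it turned with a library left out (-0.02 to 0.18). Slc16a3, the MCT4 exporter, was at 0.35 to 0.64 FPKM in all libraries.

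The gate to the mitochondrion is set by pyruvate dehydrogenase and the kinases that switch it off. All 4 genes of this branch had a negative log2 fold change, as did 51.9% of all genes, with a median of -0.13, and those of Pdk1 and Pdk3 turned sign with a library left out. Pdk3, the most abundant kinase, was at 27.7 and 26.2 FPKM with IL-3, against 24.3 and 30.4 FPKM without it, a log2 fold change of -0.005 with a standard error of 0.30. Pdk1, a HIF target, was at 20.9 and 6.99 FPKM with IL-3, against 6.30 and 18.4 FPKM without it. One library of each group was high and one low in Pdk1, and its log2 fold change ranged from -1.04 to 0.66 over the libraries left out. Pdk2 held 19 to 38 counts, lower in both libraries without IL-3. Pdha1, the catalytic subunit, was at 28.8 and 22.6 FPKM with IL-3, against 24.0 and 24.0 FPKM without it.

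In the pentose phosphate pathway 3 genes were higher and 4 lower without IL-3, at a median log2 fold change of -0.01. G6pdx, the first and rate-limiting enzyme of the oxidative arm, was at 27.2 and 36.5 FPKM with IL-3, against 18.4 and 27.3 FPKM without it. The groups overlapped only by the nearest values, 27.21 FPKM with IL-3 and 27.31 FPKM without it. Pgd, which makes the second NADPH, was at 59.1 and 38.2 FPKM with IL-3, against 45.4 and 87.7 FPKM without it. Its log2 fold change was 0.44 (standard error 0.42, unadjusted p = 0.343, adjusted p = 0.934 in edgeR) and became -0.03 without Abl1ko/IL3- replicate 2. Pgls, the lactonase between them, was at 13.2 and 43.2 FPKM with IL-3, against 34.6 and 24.8 FPKM without it, and the values without IL-3 lay between those with it. In the arm that makes and reshuffles ribose, the isomerase gene Rpia ranged from 21.2 to 35.3 FPKM, the epimerase gene Rpe from 8.44 to 19.4 FPKM, and the transketolase gene Tkt from 80.05 to 120 FPKM. For all 3 the groups overlapped. Taldo1, the transaldolase, was at 240 and 245 FPKM with IL-3, against 265 and 311 FPKM without it. It stood higher in both libraries without IL-3, with a log2 fold change of 0.22 and a standard error of 0.33.

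**Figure D3:**
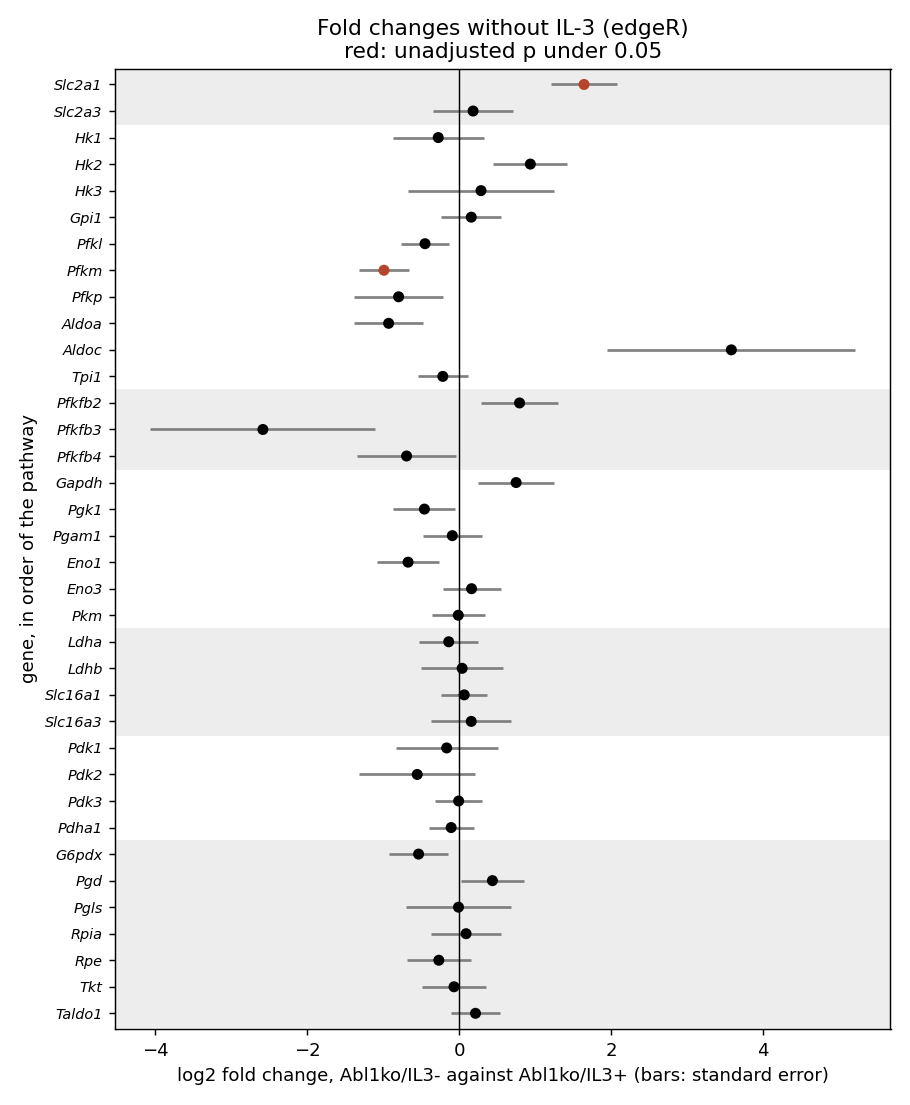
Log2 fold change of each tested member in Abl1ko/IL3- against Abl1ko/IL3+ cells (points) with its standard error (bars), in order of the pathway, with shading by branch and the 2 genes with an unadjusted p under 0.05 in edgeR in red. Most points lie within 1 log2 unit of 0, and Aldoc and Pfkfb3 have the longest bars.

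The sizes of the differences were also set beside those of all genes. The median size of the log2 fold change, regardless of sign, was 0.27 for the members and 0.43 for all genes tested, and the median standard error was 0.43 against 0.55. A difference of at least 1 log2 unit was seen in 3 members (8.33%), namely Slc2a1, Aldoc and Pfkfb3, against 20.6% of all genes, and 23 members (63.9%) differed by under 0.5. On the FPKM scale the groups did not overlap for 7 members that were higher without IL-3 (19.4%, beside 20.7% of all genes) and for 4 that were lower (11.1%, beside 16.2%). On the composition-corrected CPM scale these numbers were 5 higher (13.9%, beside 19.4%) and 7 lower (19.4%, beside 17.9%). Slc2a1, Pfkfb2, Aldoc and Taldo1 were on the higher side on both scales, and Pfkl, Pfkm, Aldoa and Pdk2 on the lower side. When each library was left out in turn, 17 members kept their sign throughout, 7 higher and 10 lower, and the sign of 19 turned at least once.

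Libraries of the same group also differed from each other. Members took 1.80% and 1.47% of all counts in Abl1ko/IL3+ replicates 1 and 2, against 1.24% and 1.77% in Abl1ko/IL3- replicates 1 and 2. The lowest and nearly the highest share thus belonged to replicates of the same group. Abl1ko/IL3- replicate 1 was the lowest library for 13 of 36 members (36.1%, beside 23.5% of all genes tested) and the highest for 3 (8.33%, beside 23.1%). Abl1ko/IL3- replicate 2 was the lowest for 3 members (8.33%, beside 14.5%) and the highest for 10 (27.8%, beside 16.8%). Abl1ko/IL3+ replicate 1 was the highest for 13 members (36.1%, beside 31.8%), among them Hk1, Pfkp, Pfkfb3, Pgk1, Eno1, Pdk1 and Rpe, and the lowest for 10 (27.8%, beside 31.6%), among them Hk3, Gapdh, Pgls, Rpia and Tkt.

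**Figure D4:**
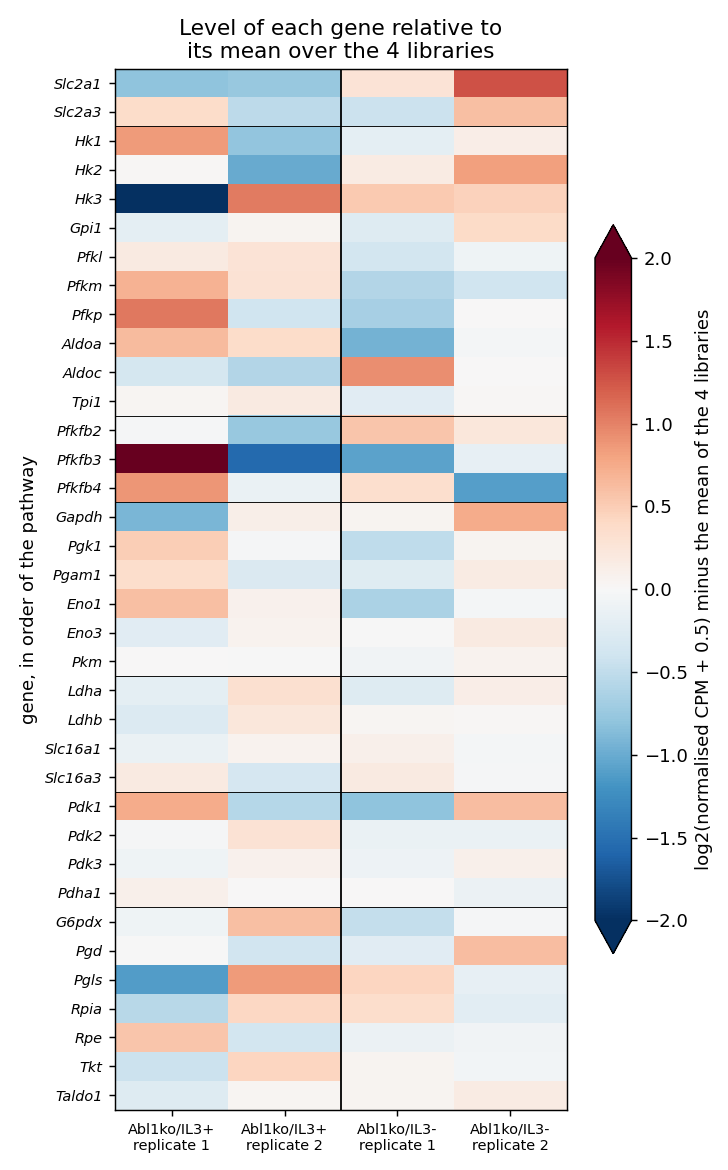
Level of each tested member in each library relative to its mean over the 4 libraries (log2 of composition-corrected CPM, colour scale ending at 2 in either direction), in order of the pathway. Slc2a1 is blue in both libraries with IL-3 and red in both without it, while Hk3, Pfkfb3 and Pgls have opposite colours in the 2 libraries with IL-3.

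The genes around the pathway were counted in lists of their own, and none of them held a gene with an adjusted p under 0.05 (edgeR's quasi-likelihood F test, Benjamini-Hochberg adjusted). Of 31 further carriers, isozymes and side enzymes of glycolysis and the pentose phosphate pathway, 20 were tested, and 4 were higher and 16 lower without IL-3, at a median log2 fold change of -0.27 and no gene at an unadjusted p under 0.05. Among 26 genes that feed pyruvate into the citric acid cycle or run it, 6 were higher and 20 lower, with a median of -0.26. Suclg1, a subunit of succinyl-CoA ligase, was at 15.1 and 26.8 FPKM with IL-3, against 7.98 and 9.12 FPKM without it (log2 fold change -1.36, unadjusted p = 0.0314, adjusted p = 0.813 in edgeR). For 10 of the 26 the FPKM of both libraries without IL-3 lay below both with IL-3, beside 16.2% of all genes tested, and for 0 above, beside 20.7%.

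Regulators of glycolysis and genes of the hypoxia response were read from 2 further lists. Of 27 regulators tested 9 were higher and 18 lower, at a median log2 fold change of -0.17 and 0 genes at an unadjusted p under 0.05 in edgeR. Hif1a was at 51.2 and 12.2 FPKM with IL-3, against 24.8 and 35.7 FPKM without it, Myc at 78.3 and 70.5 FPKM with IL-3, against 47.0 and 67.9 FPKM without it. Of 16 hypoxia-response genes tested 13 were higher (48.1% of all genes tested were) and 3 lower, with a median of 0.32. An unadjusted p under 0.05 in edgeR was reached by 3 of them, all higher, beside 2.56% of all genes tested. The 19 genes of this list found in the table summed to 1192 and 514 FPKM with IL-3, against 678 and 1281 FPKM without it, so that the groups overlapped. Ankrd37, a HIF target gene, was at 2.63 and 2.48 FPKM with IL-3, against 9.03 and 22.3 FPKM without it (log2 fold change 2.56, unadjusted p = 0.00572, adjusted p = 0.727 in edgeR). Ak4, a mitochondrial adenylate kinase, was at 3.02 and 0.43 FPKM with IL-3, against 21.3 and 29.8 FPKM without it (log2 fold change 3.95, unadjusted p = 0.00787, adjusted p = 0.727 in edgeR). Jmjd6, an oxygen-dependent hydroxylase, had a log2 fold change of 0.88 (unadjusted p = 0.0492, adjusted p = 0.841 in edgeR).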

How the data were processed

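RNA-seq of ribosome-depleted total RNA was analysed for 4 libraries, 2 per group. The authors aligned reads to GRCm38 with Rsubread and counted them per gene with featureCounts, and they deposited raw read counts and FPKM values. The submitters' processing notes name STAR and Cuffdiff instead. Versions and the strand setting are not given in the sources used here. Groups and replicate numbers came from the labels. Library totals ranged from 48953174 to 60382588 counts.

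Counts were fitted with edgeR 4.0.16 in R 4.3.3 over all genes passing filterByExpr (16535), with TMM factors, the two-sided quasi-likelihood F test, Benjamini-Hochberg adjustment over all genes tested and a threshold of 0.05. Standard errors were the log2 fold change divided by the square root of F. The p-values rest on 2 replicates per group. Levels, shares of isozymes and overlap of groups were read on FPKM, and overlap also on composition-corrected CPM where that scale is named. Alternatives were DESeq2 1.42.0, other scalings, no filter or 10 counts in every library, limma 3.58.1 on log2(FPKM + 1) and log2(FPKM + 0.1), a replicate block and leaving out each library. The edgeR step was tested on simulated data, and the DESeq2 step was not. Promoter windows came from RefSeq.

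The members, the lists and the tests were chosen with earlier results of these data known, so no list was tested as a set. Fold change and p were given for members with an unadjusted p under 0.05, for the 6 highest and 6 lowest log2 fold changes and for members whose groups did not overlap in CPM with a difference of at least 2-fold. Other fold changes were given as values with no p. From the other lists, genes with an unadjusted p under 0.05 were named, at most 4 per list (1 of them is not reported here), and Hif1a and Myc were added after their values were seen.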

Additional observations from a re-analysis of the deposited data

How the results depend on the processing

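With 2 libraries per group the members' median standard error was 0.43 on the log2 scale, which limits what a single gene can show. The number of genes with an adjusted p under 0.05 was 0 in edgeR and limma with all 4 libraries and 271 with DESeq2, and it ran from 0 to 15 in edgeR when each library was left out, with 15 genes without Abl1ko/IL3- replicate 1. In those fits the group left with a single library was assumed to vary like the other. No member had an adjusted p under 0.05 under any alternative. Unadjusted, 7 of 36 members (19.4%, beside 15.7% of all genes) had a p under 0.05 without Abl1ko/IL3+ replicate 1, 8 (22.2%, beside 17.8%) without Abl1ko/IL3+ replicate 2, and 1 (2.78%, beside 3.24% and 4.60%) without either Abl1ko/IL3- replicate. The members' median log2 fold change lay between -0.12 and 0.015 over the libraries left out, and was 0.014 scaled by library size only and 0.021 with upper-quartile factors, where 19 and 18 members were higher. The median of all genes was then 0.007 and 0.034.

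Single values turned sign when a library was left out. Pfkp ran from -1.34 to 0.12 and Pfkfb3 from -3.53 to 1.29, both positive without Abl1ko/IL3+ replicate 1, and Pgd ran from -0.033 to 0.80, negative without Abl1ko/IL3- replicate 2. The cause was not tested. All other alternatives for the 12 members with a p given kept the direction and the side of the adjusted threshold.

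Replicate numbers were shared between the groups, but deviations of same-numbered libraries correlated at -0.194 across genes, and so the numbers were not taken as pairs. With the replicate block 0 genes and 0 members had an adjusted p under 0.05, 548 genes and 1 member had an unadjusted p under 0.05, and the members' median was -0.009. With the numbers crossed, an alternative chosen after seeing the data, these counts were 0, 0, 1136 and 3 in edgeR.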

Other observations

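Genes of gluconeogenesis and glycogen metabolism held no gene past the adjusted threshold. Of 15 tested, 5 were higher and 10 lower without IL-3, at a median log2 fold change of -0.15 and 0 genes at an unadjusted p under 0.05 in edgeR. Gys1, the glycogen synthase of most tissues, was at 41.2 and 2.90 FPKM with IL-3, against 22.3 and 7.45 FPKM without it, and Gbe1, the branching enzyme, at 17.0 and 1.20 FPKM with IL-3, against 2.77 and 11.7 FPKM without it. Both genes spanned a wide range over the libraries, 14.2-fold and 14.1-fold, within the groups as much as between them. These 2 genes were named after their values were seen.

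Genes that supply NADPH outside the pentose phosphate pathway or spend it on redox defence included 19 tested genes. Of these, 10 were higher and 9 lower, at a median log2 fold change of 0.02, and 1 higher and 3 lower genes had an unadjusted p under 0.05 in edgeR, beside 2.56% and 3.36% of all genes tested. Slc7a11, the cystine carrier that feeds glutathione synthesis, was at 0.573 and 0.486 FPKM with IL-3, against 2.91 and 6.39 FPKM without it (log2 fold change 3.10, unadjusted p = 0.00132, adjusted p = 0.572 in edgeR). Idh1, the cytosolic isocitrate dehydrogenase that yields NADPH, was at 166 and 66.2 FPKM with IL-3, against 23.7 and 34.7 FPKM without it (log2 fold change -1.97, unadjusted p = 0.00976, adjusted p = 0.727 in edgeR). Nadk, the kinase that makes NADP, was at 111 and 60.3 FPKM with IL-3, against 18.1 and 26.2 FPKM without it (log2 fold change -1.94, unadjusted p = 0.0043, adjusted p = 0.726 in edgeR). Me2, the mitochondrial malic enzyme, had a log2 fold change of -0.89 (unadjusted p = 0.0416, adjusted p = 0.841 in edgeR). These 4 genes were named by their p, so separate groups in them add no further evidence. Over the whole list of 19, the FPKM groups did not overlap for 3 genes that were higher without IL-3 and 5 that were lower. The shares of all genes tested were 20.7% and 16.2%.

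Marker lists of other cell types were read beside these results. The 12 maturing granulocyte markers summed to 982 and 346 FPKM with IL-3, against 948 and 4479 FPKM without it, and 5 of the 11 tested had an unadjusted p under 0.05, all higher, among them S100a8 and S100a9, beside 2.56% of all genes tested. Macrophage markers summed to 138, 17.7, 34.6 and 78.8 FPKM over the libraries in the same order, and 1 of 6 tested had an unadjusted p under 0.05 in edgeR, lower. T lineage markers summed to 0.17 and 0.30 FPKM with IL-3, against 0.76 and 2.18 FPKM without it. Of the 3 tested, 2 had an unadjusted p under 0.05 in edgeR, both higher, at these low levels. Stromal markers summed to 33.3 to 96.2 FPKM. Marker RNA alone does not show that such cells were present, and its relation to the values of the glycolytic genes was not tested.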
